A study of Mus musculus with 12 samples.

Results

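The genes described here are the 3 D-type cyclins (Ccnd1, Ccnd2 and Ccnd3), the cyclin-dependent kinases of G1 (Cdk4, Cdk6 and Cdk2), the kinase inhibitors Cdkn1b and Cdkn2c, the retinoblastoma gene Rb1 and the repressor Hbp1. They were chosen by symbol, and each of the 10 symbols matched 1 of the 21705 genes measured. Liver mRNA was sequenced from 12 female C57BL/6J mice between 10 and 12 weeks old. All of them had been injected in the tail vein, 6 with saline and 6 with LNA29, and their livers were taken on day 7 after dosing and an 18 h fast. LNA29 is a mixture of an inhibitor of miR-29a and an inhibitor of miR-29b and miR-29c, each given at 20 mg/kg. Locked nucleic acids are short modified oligonucleotides that bind a microRNA and block it. The comparison asks which liver mRNAs differ when miR-29 is inhibited. Saline is the only control among these libraries, so an effect of injecting an oligonucleotide and an effect of inhibiting miR-29 cannot be told apart here. The labels do not say whether the mice came from 1 dosing set or several.

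D-type cyclins are the link between growth signals and the cell cycle. They bind Cdk4 or Cdk6, and the active kinases phosphorylate the retinoblastoma protein, which then releases E2F transcription factors and lets the genes of S phase be transcribed. Cyclin E with Cdk2 completes that step. Cdkn2c (p18) is an INK4 inhibitor that acts on Cdk4 and Cdk6, and Cdkn1b (p27) is a CIP/KIP inhibitor best known for holding Cdk2 in check. Hbp1 is an HMG-box protein that binds Rb and represses Ccnd1 transcription. Most hepatocytes of an adult liver rest outside the cycle, and a rise of Ccnd1 is an early mark of their return to it after loss of liver tissue.

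The members of the miR-29 family share one seed, the bases 2 to 8 of the microRNA that pair with a target mRNA. Their mature sequences, from RefSeq (GRCm38.p6), are shown because every match below is read from that seed, which is in capitals.
mmu-miR-29a-3p: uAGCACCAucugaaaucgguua
mmu-miR-29b-3p: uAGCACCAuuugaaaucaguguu
mmu-miR-29c-3p: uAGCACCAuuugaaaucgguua

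The complement of the seed, TGGTGCT, was searched on the transcript strand in 3′ UTRs of GENCODE M21 (GRCm38), taking for each gene the longest one. It is present in 2673 of 19608 genes, or 13.6%. Among the 10 genes it is present in 3: Ccnd2 has 2 matches in a 3′ UTR of 5173 bases, Cdk2 has 1 in 1167 bases and Cdk6 has 3 in 10217 bases. The median longest 3′ UTR of all genes is 1014 bases, so the UTRs of Ccnd2 and Cdk6 are far above the median in length. None of these 6 matches is followed by the A that makes an 8-base site (TGGTGCTA), which 2.98% of all genes hold. The longest 3′ UTR of Hbp1 has no match, but another annotated 3′ UTR of that gene, 1236 bases long, has 2, of which the first is an 8-base site. The sites are printed with their flanks, with the seed match in capitals, for the 4 genes that hold TGGTGCT in an annotated 3′ UTR. A direct effect of the inhibitor on the other genes is not excluded by this search. A match is a description of letters and not a shown binding site.
Ccnd2, chr6:127129402-127129408, minus strand, last exon: actacccctaactttTGGTGCTgattagca
Ccnd2, chr6:127127757-127127763, minus strand, last exon: aggactgagtctggtTGGTGCTgagtctac
Cdk2, chr10:128698422-128698428, minus strand, last exon: aatcttactgttttcTGGTGCTgactgcta
Cdk6, chr5:3529660-3529666, plus strand, last exon: cctgacctgtcccttTGGTGCTtcccatct
Cdk6, chr5:3529801-3529807, plus strand, last exon: acaagagataataccTGGTGCTgggcacag
Cdk6, chr5:3530119-3530125, plus strand, last exon: caggatgctctgtttTGGTGCTttgggttc
Hbp1, chr12:31927213-31927219, minus strand, last exon: aaaattgatatcctgTGGTGCTaaagtaca
Hbp1, chr12:31926797-31926803, minus strand, last exon: ggacagtcattgtaaTGGTGCTgttaccag
Ccnd1, Ccnd3, Cdk4, Cdkn1b, Cdkn2c and Rb1 hold no TGGTGCT in any annotated 3′ UTR. The 6-base core GGTGCT, present in 29.3% of all genes, occurs 3 times in the longest 3′ UTR of Ccnd1 and 11 times in that of Cdk6. Whether an A follows a core that is not part of TGGTGCT was not examined.

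Values are given on the scale of the deposited table, called the scaled value here. On that scale, genes with at least 1 read have an upper quartile of 1000 in each liver (998.4 in saline 49), and a gene without reads is written as 1. Between 7696082 and 19062440 reads fell on genes per liver, and 1 read was worth 9.80 to 24.4 of the scale. It was worth 9.80 to 17.5 in saline and 12.5 to 24.4 in LNA29 livers. Read totals of the 2 groups are therefore not on the same scale. Hepatocyte markers dominated, and Alb, the gene of serum albumin, took 35.7% to 46.9% of all reads. Saline 49 stood apart, with the lowest share for Alb (43.6% to 46.9% in the others). In the comparison of LNA29 with saline, 20 of 12486 tested genes passed an adjusted p of 0.05 (0.16%), 9 of them higher and 11 lower in LNA29. An unadjusted p under 0.05 was reached by 7.91% of genes, and 0.985% of genes had groups that did not overlap. Markers of stellate, endothelial and bile duct cells, macrophages, lymphocytes and red blood cells were also measured, and of all 7 marker lists, hepatocytes included, 0 of 38 tested genes passed the adjusted threshold in limma and 2 had an unadjusted limma p under 0.05 (Hgf, lower in LNA29, and Marco, higher). Hgf never had more than 3 reads in a liver, so its direction rests on very few reads. Of the 7 macrophage markers, Marco was the only 1 higher in LNA29, and 6 were lower. In bulk liver, fewer cells of a type and less RNA per cell cannot be told apart.

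None of the 10 genes differed between LNA29 and saline livers beyond the spread between livers. All 10 were tested, and 0 passed an adjusted p of 0.05 (limma, Benjamini-Hochberg over all genes tested), beside the 0.16% of all genes. None reached an unadjusted limma p of 0.05, none had groups that did not overlap, and edgeR and DESeq2 gave 0 at either threshold too. DESeq2 gave no adjusted p for 3 of the genes (Ccnd2, Cdk6 and Rb1). Of the fold changes, 5 were positive and 5 negative, with a median log2 fold change of 0.04 against -0.09 over all tested genes. The adjusted p ran from 0.781 for Cdk2 to 0.979 for Rb1, and the two-sided exact permutation p over the 924 divisions of the livers from 0.139 to 0.907, where 6 against 6 can reach 0.00216. How large a difference could have been missed depended on the reads, and 5 genes (Cdkn2c, Cdk2, Ccnd2, Rb1 and Cdk6) averaged fewer than 15 reads per liver.

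**Figure D1:**
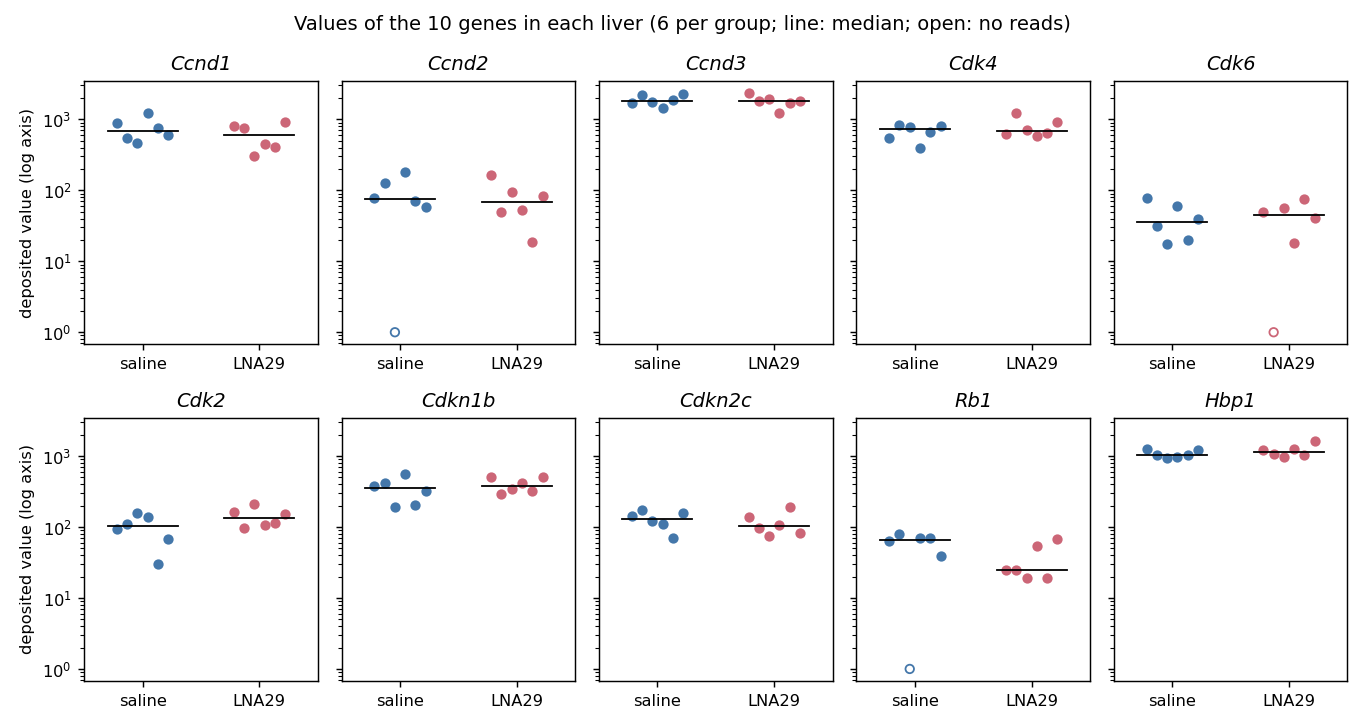
Scaled value (log axis) of each of the 10 genes in 6 saline and 6 LNA29 livers, 1 point per liver, with a line at the group median and an open point where a liver had no read. The groups overlap in every panel, and the open points are saline 47 for Ccnd2 and Rb1 and LNA29 46 for Cdk6.

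Among the D-type cyclins, Ccnd1, the one induced when hepatocytes enter the cycle, had scaled values from 460.9 to 1242.6 in saline livers with a median of 681.4. In LNA29 livers it ran from 305.1 to 905.2 with a median of 596.3. The highest value was that of saline 49, and 3 LNA29 livers (48, 50 and 52) lay below every saline liver. The log2 fold change on log2(value + 1) was -0.35 ± 0.29 (SE, n = 6 and 6), with a 95% interval from -0.96 to 0.26 (limma adjusted p = 0.835). This interval holds a fall to 0.513 of the saline level and a rise to 1.20 of it. Leaving out single livers gave log2 fold changes from -0.49 (without LNA29 54) to -0.18 (without LNA29 48), with -0.19 without saline 49. Ccnd1 varied more between livers than reads alone would make it vary: the variance of its scaled values was 8.72 times that of counting in saline livers and 5.82 times in LNA29 livers. In the annotation, 23.4% of its exon bases are shared with LTO1, a gene on the opposite strand, whose reads may be among them because the use of strand in counting is not given in the sources used here.

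Ccnd3, the cyclin D expressed widely in resting and differentiated tissues, was the steadiest of the cyclins. It had scaled values from 1433.4 to 2237.4 in saline livers (median 1812.1) and from 1243.6 to 2349.1 in LNA29 livers (median 1822.4). The groups covered largely the same range. The log2 fold change was -0.06 ± 0.16 (SE, 95% interval -0.40 to 0.29, limma adjusted p = 0.969), so that a fall to 0.757 or a rise to 1.22 of the saline level bounds what these livers allow. The sign was not fixed, since TMM scaling gave 0.01 and DESeq2 0.03. Beside it, Ccnd2, the cyclin D with 2 seed matches, was at the edge of detection. It had 0 to 18 reads in saline livers and 1 to 13 in LNA29 livers, which gave scaled values from 1 to 180.0 (median 74.4) and from 18.9 to 162.5 (median 67.9). The log2 fold change of 0.36 ± 0.87 (SE) had an interval from -1.47 to 2.19, and 1 liver decided its sign: it was -0.57 without saline 47, the liver with no Ccnd2 read. Anything from 0.360 to 4.57 of the saline level lies within that interval, so a difference of that size was not detectable at this depth.

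Of the kinases, Cdk4, a partner of the D-type cyclins, had scaled values from 400.0 to 841.3 in saline (median 728.1) and from 589.3 to 1243.9 in LNA29 livers (median 679.2). The lowest value was that of saline 49 and the highest that of LNA29 46. LNA29 differed from saline by a log2 fold change of 0.22 ± 0.23 (SE, 95% interval -0.27 to 0.70, limma adjusted p = 0.878), and 0.07 without saline 49 or without LNA29 46. Cdk4 shares 19.7% of its annotated exon bases with Tspan31 on the opposite strand. Cdk6, the other partner and the gene with the most seed matches, was close to absent from the reads: 1 to 6 per saline liver and 0 to 4 per LNA29 liver, with 20 and 15 in the whole groups. Its log2 fold change of -0.47 ± 0.79 (SE) became 0.28 without LNA29 46, the only liver with no Cdk6 read, and 0.08 with edgeR.

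Cdk2, the kinase that cyclin E activates, had the smallest p of the 10 genes and 1 seed match. Its scaled values ran from 30.3 to 157.9 in saline livers (median 102.4) and from 97.6 to 207.5 in LNA29 livers (median 131.9). The groups overlapped, 5 of 6 LNA29 livers lay above the saline median, and the lowest saline liver, 51, had 3 reads. This amounted to a log2 fold change of 0.60 ± 0.40 (SE, 95% interval -0.24 to 1.44, limma p = 0.152, adjusted p = 0.781), and the exact permutation p was 0.139. Leaving out saline 51 brought it to 0.30 and leaving out saline 47 or 49 to 0.77 or 0.73. With 46 reads over the saline livers and 51 over the LNA29 livers, the interval reached from 0.845 to 2.72 of the saline level.

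**Figure D2:**
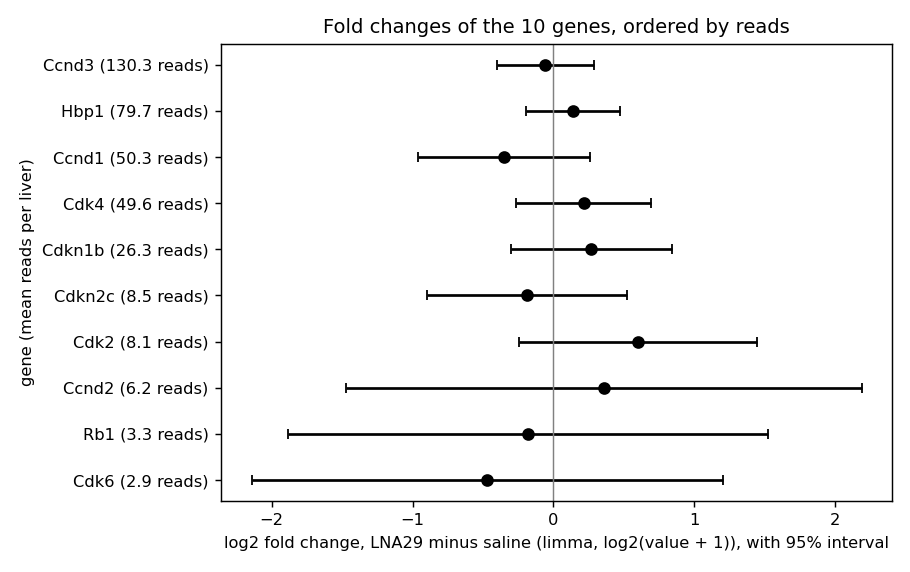
Log2 fold change of LNA29 against saline for the 10 genes, with limma's 95% interval, ordered by mean reads per liver (in brackets). Every interval crosses 0, and the 3 genes with the fewest reads (Ccnd2, Rb1 and Cdk6) have the widest intervals.

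The inhibitors and the pocket protein showed the same overlap. Cdkn1b (p27) ran from 193.0 to 550.0 in saline livers (median 349.3) and from 292.7 to 506.8 in LNA29 livers (median 375.2). All LNA29 livers lay within the saline range. Its log2 fold change was 0.27 ± 0.27 (SE, 95% interval -0.30 to 0.84, limma adjusted p = 0.874), and ran from 0.12 without saline 47 to 0.43 without saline 49, the saline livers with its lowest and highest values. The saline values of Cdkn1b had 4.14 times the variance of counting and the LNA29 values 1.28 times. Cdkn2c (p18) ran from 70.7 to 174.6 in saline livers (median 131.7) and from 75.5 to 188.7 in LNA29 livers (median 102.4). Its log2 fold change was -0.19 ± 0.34 (SE, limma adjusted p = 0.938), from -0.35 (without saline 51) to -0.08 (without LNA29 48) over the leave-outs, and its variance was no larger than that of counting, 0.778 times in saline and 0.885 times in LNA29 livers.

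Rb1, whose product the cyclin D kinases phosphorylate, had 27 reads over the saline livers and 13 over the LNA29 livers. Rb1 shares 8.11% of its annotated exon bases with Rcbtb2 and 6.78% with Lpar6, both on the opposite strand. Its scaled values were 1 to 79.4 in saline (median 66.2) and 18.9 to 68.5 in LNA29 livers (median 24.7). Saline 47 had no Rb1 read, and the other saline livers lay above 4 of the 6 LNA29 livers. With all livers the log2 fold change was -0.18 ± 0.81 (SE, 95% interval -1.89 to 1.53, limma adjusted p = 0.979). Without saline 47 it was -1.01 (limma adjusted p = 0.624), and without saline 45, 49 or 51 it was above 0. DESeq2 gave -0.53 and edgeR -0.52. Leaving out values beyond 1.5 SD, which dropped saline 47 and also LNA29 54, the highest LNA29 liver, gave -1.24 (limma adjusted p = 0.143). Leaving out LNA29 54 alone gave -0.41. The size of the difference thus depended on more than the handling of the liver with no read. Hbp1, by contrast, was well measured. It ran from 929.8 to 1250.0 in saline livers (median 1033.9) and from 962.3 to 1616.4 in LNA29 livers (median 1149.1). The highest value was that of LNA29 54. The log2 fold change was 0.14 ± 0.16 (SE, 95% interval -0.20 to 0.47, limma adjusted p = 0.891), which holds at most a rise to 1.39 of the saline level. Leaving out LNA29 54 brought the estimate to 0.046. In the annotation, 24.6% of Hbp1 exon bases are shared with Cog5 on the opposite strand.

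The order of the 10 genes by level was read from the scaled value per kb of the longest annotated coding transcript. In saline livers Ccnd3 was first, at 885 ± 147 per kb (SD, n = 6), followed by Hbp1 at 341 ± 41.8 and Cdk4 at 329 ± 85.0. Ccnd3 did not overlap with any other gene, whereas Hbp1 and Cdk4 did not differ beyond their spread. Ccnd1 came next at 201 ± 76.9 per kb and overlapped with Cdk4. Cdkn1b followed at 75.3 ± 29.7 per kb, its highest saline liver (120.8) lying just under the lowest of Ccnd1 (123.2). Cdkn2c (52.3 per kb), Cdk2 (41.7), Ccnd2 (13.6), Rb1 (11.5) and Cdk6 (3.57) came after it, each overlapping with the gene before it. With the shortest annotated coding transcript as the length, Ccnd3 stayed first at 4031 per kb and Rb1 came last at 11.5, below Cdk6 at 16.7. Which transcript liver uses was not measured.

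Per kb, Ccnd3 made up most of the D-type cyclin mRNA in every liver. Its share of the summed value per kb of the 3 cyclins was 80.2% ± 8.48 (SD, n = 6) in saline and 83.4% ± 4.84 (SD, n = 6) in LNA29 livers. Ccnd1 made up 18.5% ± 7.77 in saline and 15.5% ± 4.83 in LNA29 livers, and Ccnd2 1.22% and 1.13%. Saline 49 had the lowest share for Ccnd3, 65.3%, and the highest for Ccnd1, 32.0%. Of the value per kb of Cdk4 and Cdk6 together, Cdk4 made up 98.7% in saline and 99.0% in LNA29 livers. Thus both groups had the pair Ccnd3 and Cdk4 as the most abundant cyclin D and cyclin D kinase, on the value per kb.

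**Figure D3:**
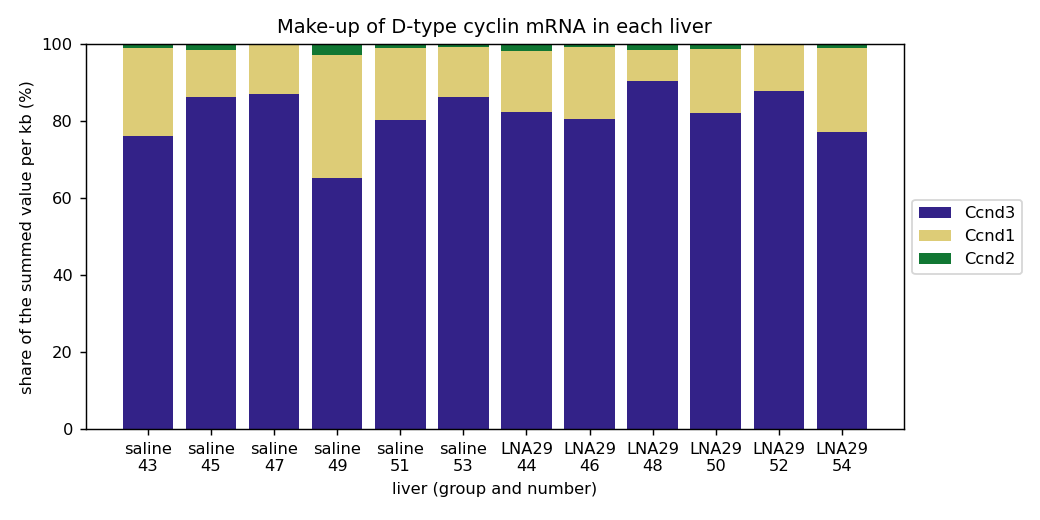
Share of Ccnd3, Ccnd1 and Ccnd2 in their summed scaled value per kb (bars from 0 to 100%), 1 bar for each of the 12 livers. Ccnd3 makes up from 65.3% to 90.4% in every liver, and the lowest share is that of saline 49.

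Ratios between members were taken within each liver, which removes the scaling of that liver where both genes have reads, apart from the added 1. That does not hold where a gene without reads is written as 1 (Ccnd2 in saline 47 and Cdk6 in LNA29 46), and the difference for Ccnd2 to Ccnd1 ran from 0.40 to 0.84 with the pseudocount alone. The log2 ratio of Ccnd3 to Ccnd1 was 1.38 ± 0.72 (SD, n = 6) in saline and 1.67 ± 0.59 (SD, n = 6) in LNA29 livers, and that of Cdkn2c to Cdkn1b was -1.36 ± 0.56 and -1.81 ± 0.62. The difference of the latter, -0.46, had the smallest p of the 5 ratios tested (two-sided exact permutation p = 0.206, adjusted over the 5 ratios 0.641). It was -0.94 with values beyond 1.5 SD left out (exact permutation p = 0.0159, adjusted 0.0794). That setting drops each group's own extremes before the test, which narrows the spread, so this p is not comparable with the others. Over single livers left out, the difference ran from -0.67 without LNA29 52 to -0.30 without LNA29 54. The other differences, LNA29 minus saline, were 0.71 for Ccnd2 to Ccnd1, 0.29 for Ccnd3 to Ccnd1, -0.68 for Cdk6 to Cdk4 and 0.38 for Cdk2 to Cdk4, all with an adjusted exact p of 0.641. Each was smaller than the spread between livers, and without saline 49 that of Ccnd3 to Ccnd1 was 0.06.

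Beyond the 10 genes, 88 genes of the same pathway were listed by role in 7 lists, and 71 of them could be tested. Only Cdkn1a (p21), the CIP/KIP inhibitor that p53 induces, passed the adjusted threshold. Its scaled values ran from 2328 to 4843 in saline livers (median 3620) and from 5434 to 12630 in LNA29 livers (median 8054). All LNA29 livers lay above all saline livers, and the log2 fold change was 1.20 ± 0.20 (SE, limma adjusted p = 0.0230). The adjusted p rose above 0.05, up to 0.0787, when any one of 5 livers (LNA29 50, 52 or 54, saline 43 or 51) was left out, with log2 fold changes from 1.07 to 1.32 over all leave-outs. Its longest 3′ UTR holds the 7-base seed match, which 13.6% of all genes hold. Of the other pathway genes named below, Cdkn2d, E2f4 and Egfr hold it too, and none of them passed the threshold. Whether the match bears on the difference of Cdkn1a was not tested. Across the 71 genes 5 reached an unadjusted limma p of 0.05, which is 7.04%, near the 7.91% of all genes.

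The other inhibitors were low: Cdkn2a and Cdkn2b, of the INK4 family, never had more than 3 reads in a liver, while Cdkn2d and Cdkn1c had log2 fold changes of 0.41 and -0.13 and did not pass the test. Of the 10 genes for cyclin E, cyclin A and CDK activation, 4 never had more than 3 reads in a liver. For the 6 above that level, the median log2 fold change was -0.10, with Cdk7, the kinase that activates other CDKs, at 0.25 ± 0.23 (SE). Of the 12 pocket proteins and E2F genes, 9 were tested above that level with a median of -0.10, and the most abundant by scaled value, E2f4, a repressor E2F of resting cells, was at -0.03 ± 0.14 (SE). The 10 genes for the turnover of cyclin D, cyclin E and p27 had a median of -0.04, and Skp1a, a subunit of SCF ubiquitin ligases, was at 0.20 ± 0.15 (SE). These 4 lists, apart from Cdkn1a, held no gene with an unadjusted limma p under 0.05.

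The genes that an active cycle would switch on were few in reads. Of 20 G2/M genes and markers of dividing cells, 17 never had more than 3 reads in a liver, and the whole list took 14 to 48 reads per saline liver and 12 to 43 per LNA29 liver. Aurka, a mitotic kinase and the one with the highest level of that list, had a log2 fold change of 0.06 ± 0.42 (SE). Plk1, another mitotic kinase, was among the genes with an unadjusted limma p under 0.05 (exact permutation p = 0.0563, limma adjusted p = 0.509), but with 0 to 3 reads per saline liver and 1 to 2 per LNA29 liver no fold is given. Of the 20 S phase and E2F target genes, 17 were tested above that level, with 6 positive and 11 negative fold changes and a median of -0.11. Mcm6, a subunit of the replicative helicase, was at 1.06 ± 0.48 (SE, exact permutation p = 0.0238, limma adjusted p = 0.613) on 1 to 6 reads per liver.

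The listed inducers of Ccnd1 were better measured, 10 of the 11 averaging at least 15 reads. Their median log2 fold change was 0.18, and none passed the adjusted threshold. Met, the receptor of hepatocyte growth factor, had scaled values from 193.0 to 670.0 in saline (median 342.4) and from 107.1 to 274.0 in LNA29 livers (median 232.0), with a log2 fold change of -0.93 ± 0.33 (SE, exact permutation p = 0.0325, limma adjusted p = 0.427). Its groups overlapped. Egfr, the epidermal growth factor receptor and the most abundant of the list by scaled value, was at 0.34 ± 0.20 (SE, limma adjusted p = 0.726).

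**Figure D4:**
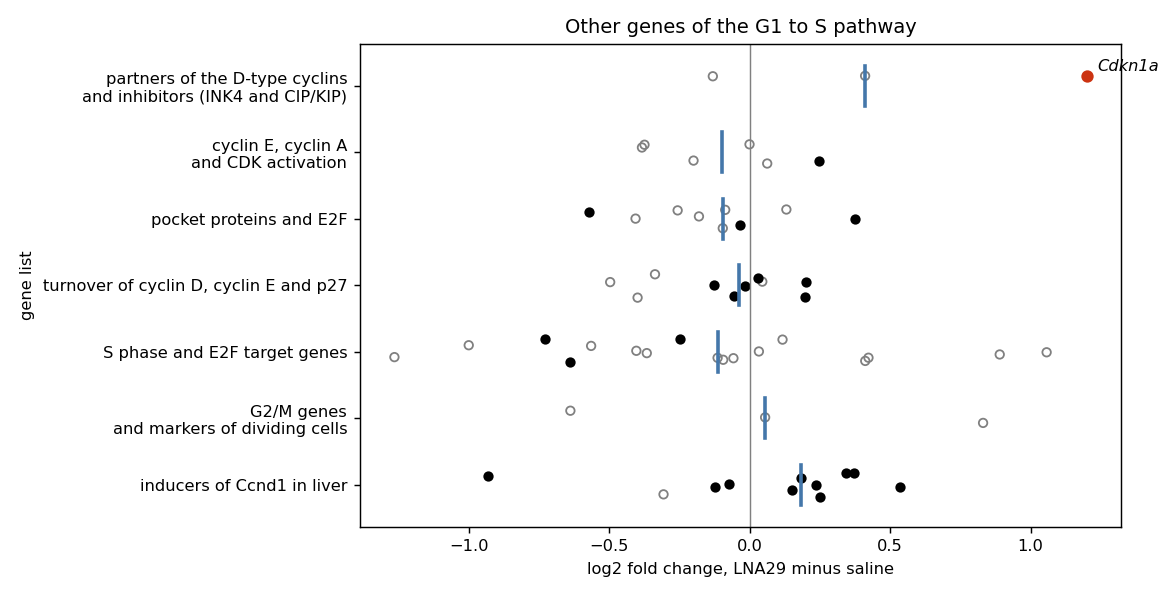
Log2 fold change of LNA29 against saline for the 59 listed pathway genes that were tested and had more than 3 reads in at least 1 liver, by list. Filled points average at least 15 reads per liver, open points fewer, the red point (Cdkn1a) passed the adjusted threshold, and blue lines are list medians, which lie between -0.11 and 0.41.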

How the data were processed

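Polyadenylated liver RNA was sequenced as single reads. The authors mapped with MapSplice2 and counted with RSEM (versions not given in the sources used here; mm9 per the submitters' processing notes). The deposited signal values are reads scaled to an upper quartile of 1000, with 1 for genes without reads. Columns of the authors' comparison (4) and of notes (3) were not used. Between 92.2% and 93.8% of values were whole multiples of 1 read (tolerance 0.02). An automatic check of such multiples accepted 6 of the 12 livers. Rounded reads of all 12 were nevertheless used, for the read numbers given and for edgeR 4.0.16 and DESeq2 1.42.0, as alternatives only.

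Under R 4.3.3, limma 3.58.1 was fitted with a mean-variance trend to log2(value + 1) of 12486 genes with a mean of at least 10. Members, ratios, pathway genes and markers had two-sided exact permutation tests (Python 3.11.15, numpy 2.4.6). Of these p-values, only those of the ratios were adjusted. Variance of counting means that expected from the reads alone. Genes with at most 3 reads in every liver get no fold change. Seed matches, lengths and exon overlaps come from another build (GRCm38). Named were all members and, of the pathway lists, genes with an adjusted or unadjusted limma p under 0.05 or groups that did not overlap, and each list's gene with the highest mean. One result under this rule is not reported here. Cdkn2a, Cdkn2b, Cdkn2d, Cdkn1c, Hgf and Marco were named after their values were seen. Members and lists were chosen with earlier results of these data known. Other pseudocounts, filters, scalings and array weights were tried, as were leaving out single livers and discarding values beyond 1.5 SD. Scripts were tested on simulated data.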

Additional observations from a re-analysis of the deposited data

Results flagged for a closer look

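Of 50 groups of 6 livers examined for a liver far from the others, 6 were flagged, where chance flags about 1 in 20. Saline 47 had no read of Ccnd2 and Rb1, so that its log2(value + 1) was 1 in both, against 5.90 to 7.50 and 5.33 to 6.33 in the other saline livers. Its log2 ratio of Ccnd2 to Ccnd1 was -7.85, set by the 1 written for a gene without reads, against -3.51 to -2.10. LNA29 46, the shallowest library, had no Cdk6 read, and its log2 ratio of Cdk6 to Cdk4 was -9.28, set in the same way, against -4.97 to -3.07. Saline 47 also had the highest log2 value of Skp1a, 12.43 against 11.92 to 12.09, and saline 53 the highest of Egfr, 11.78 against 11.04 to 11.21.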

How the results depend on the processing

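No alternative called any of the 10 genes. DESeq2 gave no adjusted p for 3 of them (Ccnd2, Cdk6 and Rb1), and the filter at a mean of at least 100 left out the same 3. The lowest limma adjusted p was 0.143 (Rb1, with values beyond 1.5 SD left out, unadjusted p 0.00886), and array weights gave Cdk2 an unadjusted limma p of 0.0368. Leaving out values beyond 1.5 SD drops each group's own extremes before the fit and so narrows the spread. Its p-values are not comparable with those of the other settings. Over all genes, the 20 calls became 72 with DESeq2, 58 with array weights, 10 with a common median, 217 with values beyond 1.5 SD left out, and 1 to 29 without single livers (1 without LNA29 50, 52 or 54 or saline 43). The single call among the pathway lists stayed at 1 or became 0 without single livers. The sign turned for Ccnd2 (-0.059 with DESeq2, -0.058 with edgeR, from -0.57 without saline 47 to 0.73 without single livers), Ccnd3 (0.028 with DESeq2, 0.013 with TMM scaling, 0.018 with edgeR, from -0.14 to 0.047 without single livers, highest without LNA29 50), Cdk4 (-0.068 with values beyond 1.5 SD left out), Cdk6 (0.087 with DESeq2, 0.079 with edgeR, from -0.77 to 0.28 without single livers, highest without LNA29 46) and Rb1 (0.056 with TMM scaling, from -1.01 to 0.054 without single livers, above 0 without saline 45, 49 or 51). The log2 ratio of Cdk6 to Cdk4 turned to 0.91 with values beyond 1.5 SD left out and ran from -1.04 to 0.21 without single livers, and that of Ccnd2 to Ccnd1 from -0.094 to 1.06. In the 8-base setting 0 members held a seed match in the longest 3′ UTR, though Hbp1 held one in another annotated 3′ UTR. The 7-base match was held by 4 members in any annotated 3′ UTR, beside 14.4% of all genes. Apart from livers without reads, where the missing read sets the value, the cause was not tested. No paired analysis was possible because the groups share no replicate numbers. Depth limits Cdkn2c, Cdk2, Ccnd2, Rb1 and Cdk6: the median standard error of tested genes averaging under 15 reads was 0.62, against 0.22 above.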
